A study of Canis lupus familiaris with 4 samples.

Results

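The comparison described here sets 1 array of MDCKII cells labelled HIF1A KD (knockdown) against 1 array labelled HIF1A WT, both kept in normoxia, which are 2 of the 4 arrays of the series. MDCKII is an established line of dog kidney epithelial cells that forms polarised sheets with tight junctions. Cells of the KD and the WT array alike spent 24 h in normoxia and a further 24 h in normoxia before RNA was taken, and the other 2 arrays carry the same genotype labels after a second 24 h in hypoxia. How HIF1A was knocked down, whether the KD cells are 1 clone and which oxygen level was used could not be read from the labels. The pair is defined by its titles, and the comparison was chosen with earlier results of these data known. Every difference below is the array labelled KD minus the array labelled WT. It was measured over 9834 of 15115 named genes, those whose brightest probe set reached an intensity of 46.3, the median of all values, in at least 1 of the 4 arrays. Differences are on the log2(intensity + 16) scale, so they understate the change of dim genes. With 1 array per side no difference has a replicate check, no test was possible and no p-value is given, and whether groups overlap cannot be seen.

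Cells sense oxygen through prolyl hydroxylases, which mark the alpha subunits of the hypoxia-inducible factor (HIF) for destruction when oxygen is present. When oxygen is scarce the alpha subunit stays, joins ARNT and turns on genes for glucose uptake, glycolysis, acid export, mitophagy and blood vessel growth. HIF1A encodes the most widely expressed alpha subunit, and its removal is usually expected to lower these targets.

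HIF1A mRNA read nearly the same in both arrays. Its brightest probe set read 3651 in WT normoxia and 3435 in KD normoxia, a difference of -0.09, and a dimmer HIF1A probe set read 135 and 155, a difference of 0.18. The same bright probe set read 675 and 625 in the arrays labelled WT hypoxia and KD hypoxia. HIF1A thus separated the arrays by their oxygen labels and not by their genotype labels, and the knockdown label was borne out in neither pair. Whether the titles of the arrays labelled KD normoxia and WT hypoxia were exchanged cannot be read from the files and was not tested. If they were, each difference below would compare oxygen conditions in WT cells and not genotypes. "KD" and "WT" below mean only the array that carries that label. Among the partner and sister subunits, ARNT read 83.2 and 107 and ARNT2 59.8 and 70.0. EPAS1, the alpha subunit of HIF-2, read 54.2 and 33.5 and HIF3A 55.6 and 46.0, the KD reading below the floor of 46.3 for both genes.

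The 4 arrays had median intensities of 45.6 to 47.1, and the 2 arrays of this pair correlated with r = 0.987 across probe sets. Of 14 measured kidney epithelial markers 10 reached the floor, with a median difference of -0.01. The keratin KRT18 read 13959 and 12783, the adhesion molecule EPCAM 9356 and 9864 and the kidney cadherin CDH16 156 and 140. Of 9 fibroblast markers 1 reached the floor, with summed intensities of 199 in WT and 179 in KD. Endothelial markers summed to 422 and 373 and leukocyte markers to 450 and 511, and their part in the differences was not tested. In cultures measured in bulk, fewer cells with a transcript and less transcript per cell cannot be told apart.

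The genes farthest above the WT array in KD included ADM, PDK1 and ANKRD37, which are known HIF targets, and ALDOC, an enzyme of glycolysis. Of the 9834 genes, 84 were at least 2-fold higher in KD (0.854%) and 32 at least 2-fold lower (0.325%). Over all genes 48.4% were higher by any amount and 51.6% lower. The KD normoxia array was the lowest of the 4 in 31.1% of all genes and the WT normoxia array in 21.8%, and the counts of list members below are to be read beside these shares. The median of all differences was -0.01, the middle 95% lay between -0.61 and 0.69, and the quartiles were -0.18 and 0.16. Dim genes scattered more: with genes cut by level into 4 equal bins, the SD of the differences was 0.39 in the dimmest bin and 0.26 in the brightest, with 46 and 22 genes past 2-fold. Among the 84 higher genes 58 reached the floor in both arrays of the pair, as did 14 of the 32 lower genes. At the threshold, EGLN1 (1.01) and FBLN5 (1.01) lay just inside and DNAJB5 (0.99) and CPNE9 (0.99) just outside on the higher side, while NLRP9 (-1.001) lay just inside and GLIS1 (-0.99) just outside on the lower side.

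**Figure D1:**
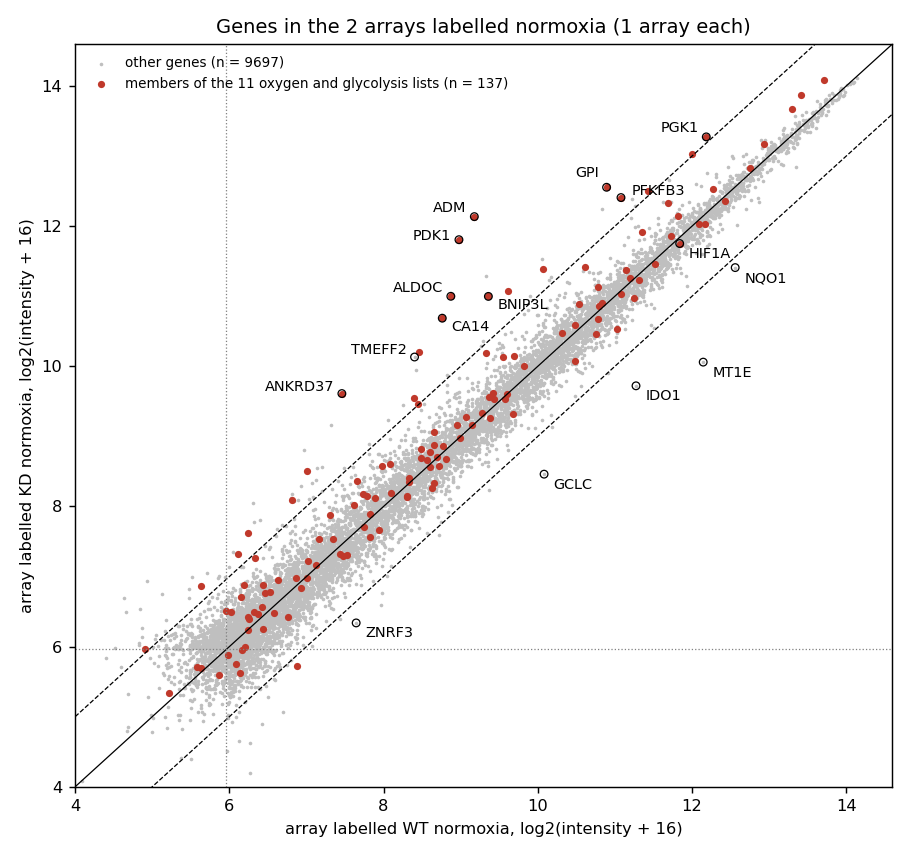
Each point is 1 of 9834 genes, placed by its log2(intensity + 16) in the array labelled WT normoxia (x axis) and in the array labelled KD normoxia (y axis). Solid line, equal levels; dashed lines, 2-fold apart; dotted lines, the floor. Red points are members of 11 lists on oxygen sensing and glucose use; ADM and PDK1 stand farthest above the line and MT1E farthest below it among genes above the floor, and HIF1A lies on it.

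Of the gene lists, 11 cover oxygen sensing, glucose use and known hypoxia targets, and 137 of their members were kept. Of these 22 were at least 2-fold higher in KD and 1 at least 2-fold lower, against the 0.854% and 0.325% over all genes. Their median difference was 0.17 with 95 of 137 higher, while the 9697 genes outside the lists had a median of -0.01. The members thus made up 26.2% of the genes at least 2-fold higher. In 65 of the 137 the KD normoxia array had the highest reading of all 4 arrays, compared with 26.4% over all genes. The lists were written with earlier results of these data known, so these counts describe the arrays and are no independent evidence of a direction.

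The genes farthest apart were ADM and PDK1. ADM, which encodes the vasodilator peptide adrenomedullin, read 563 in WT normoxia, 4486 in KD normoxia, 941 in WT hypoxia and 2017 in KD hypoxia, so that the KD normoxia reading was 7.97 times that of WT normoxia (difference 2.96). PDK1, a kinase that shuts pyruvate out of mitochondria by switching off pyruvate dehydrogenase, read 488, 3568, 455 and 927 in the same order (difference 2.83), and a dimmer PDK1 probe set had a difference of 2.14. ANKRD37, a small ankyrin repeat protein and a direct HIF target, read 160, 766, 198 and 688 (difference 2.15). For ADM, PDK1 and ANKRD37 both arrays labelled KD read above both arrays labelled WT. ALDOC, the brain-type aldolase, read 453, 2031, 394 and 773 (difference 2.13). CA14, a membrane carbonic anhydrase, read 418, 1633, 237 and 531 (difference 1.93). These genes have in common that the KD normoxia array was the highest of the 4 and KD hypoxia the second highest.

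**Figure D2:**
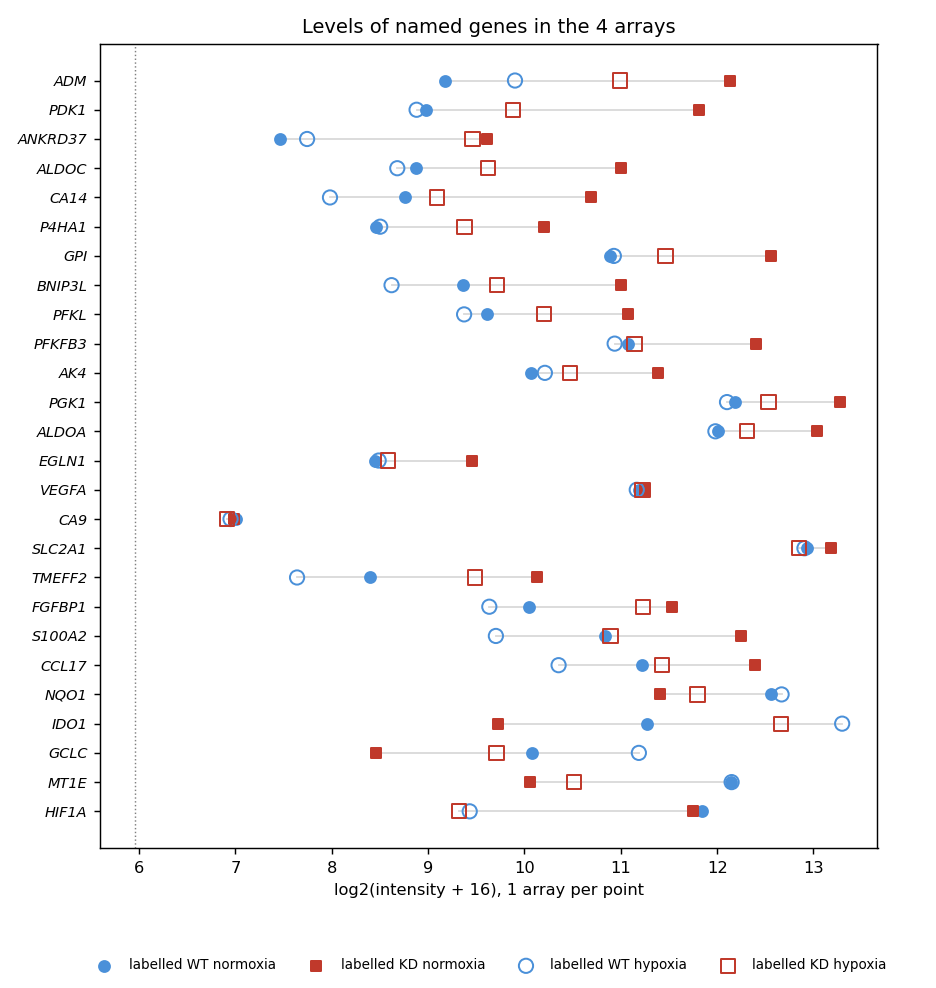
Level of named genes in each of the 4 arrays as log2(intensity + 16) on the x axis, 1 array per symbol; blue circles are labelled WT, red squares KD, filled symbols normoxia and open symbols hypoxia, and the dotted line is the floor. From ADM to EGLN1 the filled red square lies farthest right, VEGFA and CA9 show the 4 symbols together, and for HIF1A the filled symbols lie together on the right.

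In upstream glycolysis, from glucose entry to fructose bisphosphate, 3 genes were at least 2-fold higher in KD. GPI, which turns glucose 6-phosphate into fructose 6-phosphate, read 1885 in WT and 6003 in KD (difference 1.66). PFKL, the liver-type phosphofructokinase, read 765 and 2143 (difference 1.47), and its other probe sets had differences of 0.58, 1.89 and 2.10. PFKFB3, which makes the activator of phosphofructokinase, read 2148 and 5420 (difference 1.33), with other probe sets at 1.34 and -0.36. The sister enzymes PFKP (0.41) and PFKM (0.36) differed less. SLC2A1, the main glucose transporter of epithelia, read 7822 and 9259 (difference 0.24), with other probe sets at 0.39 and 0.52. HK2, the hexokinase that HIF controls in many cells, read 124 and 127, although a dimmer HK2 probe set read 44.8 and 89.5 (difference 0.80). HK1 was at -0.22 in its brighter and 0.57 in its dimmer probe set, so no direction is given for it. Of the 10 members kept, 8 were higher and 2 lower, with a median of 0.30, and 3 were at least 2-fold higher.

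From aldolase to lactate all 17 members kept were higher in KD, 5 of them at least 2-fold, with a median of 0.46 against -0.01 over all genes. ALDOA read 4098 and 8369 (difference 1.03), PGK1, which makes the first ATP of the pathway, 4642 and 9891 (1.09), and GAPDH 321 and 734 (1.16). ENO3, the muscle-type enolase, read 95.9 and 258 (1.29). SLC16A3, which exports lactate, read 64.5 and 137 (0.93), and TPI1 3275 and 5157 (0.65). The brightest members differed less: LDHA, which makes lactate, read 10946 and 15046 (0.46), PGAM1 10018 and 13054 (0.38) and ENO1 13423 and 17358 (0.37). In 13 of the 17 the KD normoxia array was the highest of all 4.

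For the bright glycolytic genes the size depended on the probe set. ENO1 has 3 dimmer probe sets, which read 6087 and 10755, 2796 and 7296, and 152 and 658, with differences of 0.82, 1.38 and 2.00. LDHA had a second probe set at 0.82, PGAM1 at 0.74, TPI1 at 1.08, ALDOA at 1.49 and PGK1 at 1.70. Over both glycolysis lists, 13 of 27 members had other probe sets at or above the floor in this pair, and 17 of these 20 probe sets differed by more than the brightest one. Their median was 0.82, against 0.42 for the brightest probe set of the same genes counted once per row. In the 11 lists as a whole 57 of 107 other probe sets exceeded the brightest one, with medians of 0.20 and 0.19. The reason for the smaller differences of bright probe sets was not tested.

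Around pyruvate dehydrogenase, the gate from glycolysis to the citric acid cycle, PDK1 stood alone. Of 11 members kept, 6 were higher and 5 lower, with a median of 0.06. The other kinases PDK4 (0.43), PDK3 (0.33) and PDK2 (0.09) lay within the middle 95% of all genes. The catalytic subunit PDHA1 read 4605 and 4154 (-0.15) and DLAT, the acetyltransferase core, 197 and 273 (0.44). MPC1, a subunit of the carrier that brings pyruvate into mitochondria, was at -0.49 (2069 and 1468), with other probe sets at -0.09 and -0.43.

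In glycogen metabolism 9 of 13 members were higher and 4 lower, with a median of 0.11 and none at least 2-fold higher. PPP1R3C, which targets a phosphatase to glycogen, read 55.2 and 88.2 (0.55) and the branching enzyme GBE1 181 and 243 (0.40). PHKG1 was at 0.55, with its WT reading of 46.1 below the floor. The regulatory phosphorylase kinase subunit PHKA2 read 101 in WT and 36.9 in KD, below the floor there, so its difference of -1.15 carries no measured size. It is the single member of the 11 lists that was at least 2-fold lower.

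Among genes for acid and bicarbonate handling CA14 was again the exception. CA9, the carbonic anhydrase often taken as a hypoxia marker, read 112 in WT and 110 in KD, and its second probe set 57.1 and 72.9 (difference 0.28). CA2, the cytosolic form, was at 0.25 and CA13 at 0.14. CA12 was below the floor in every array. The 8 members kept had a median of 0.06.

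Secreted hypoxia factors had no single direction over probe sets. Besides ADM, ANGPTL4, an inhibitor of lipoprotein lipase, read 53.4 in WT and 144 in KD (difference 1.21), and its other probe sets had differences of 1.28 and -0.06. VEGFA, the main vessel growth factor, read 2326 and 2428 (0.06), with a dimmer probe set at 51.8 and 81.7 (0.53). The endothelin EDN1 was at 0.32, the stanniocalcin STC1 at -0.36, VEGFB at -0.29 and VEGFC at -0.40. Of 10 members kept, 5 were higher and 5 lower, and their median was -0.06, which turned to 0.29 with the median over each gene's probe sets. Here and below, the median over probe sets is taken of their log2 levels in each array, before subtraction. It includes probe sets below the floor. EPO, STC2, IGFBP3 and APLN did not reach the floor in any array.

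Of the intracellular hypoxia targets 20 of 27 were higher, 7 of them at least 2-fold, and the median was 0.22. This was the largest number past 2-fold among the 11 lists, but also the longest list. Glucose entry had 3 of 10 and aldolase to lactate 5 of 17 past 2-fold. BNIP3L, a receptor for mitophagy, read 641 in WT and 2029 in KD (1.64). The transcription factor ZNF395 read 113 and 347 (1.49, and 0.69 with the median over its probe sets), SPAG4 59.7 and 181 (1.38), the mitochondrial adenylate kinase AK4 1058 and 2657 (1.32) and FAM162A 2740 and 5764 (1.07). BNIP3, the sister of BNIP3L, read 14.1 in WT, below the floor, and 46.6 in KD, which leaves its size unmeasured. Smaller differences were seen for NARF (0.87), the disulfide oxidase ERO1A (0.81), the mTORC1 inhibitor DDIT4 (0.72) and NDRG1 (0.69). MXI1 (0.21), VLDLR (-0.14), CCNG2 (-0.17) and HIGD1A (-0.27), which are HIF targets in other cells, lay within the middle 95% of all genes. AK4, FAM162A and SPAG4 read high in KD normoxia alone, whereas NARF and NDRG1 were high in both KD arrays (NARF 627, 1158, 613 and 1171 in the order WT normoxia, KD normoxia, WT hypoxia, KD hypoxia).

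Of the oxygen sensors, EGLN1, the main HIF prolyl hydroxylase and itself a HIF target, read 333 in WT and 686 in KD (1.01, and 0.63 with the median over its probe sets), against 343 and 369 in the arrays labelled hypoxia. EGLN3 read 33.8, below the floor, and 101 (1.23), and its other probe set read 12.9 and 89.8, so the size is not measured. EGLN2, which HIF is not known to control, was at 0.02, and VHL, the ubiquitin ligase subunit that binds hydroxylated HIF, at 0.14. HIF1AN, the asparagine hydroxylase of HIF, was at 0.11 and CITED2, which competes with HIF for its coactivators, at 0.29. Of 12 members 8 were higher and 4 lower.

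Collagen-modifying enzymes, which also use oxygen, were led by P4HA1. This collagen prolyl hydroxylase subunit read 335 in WT and 1164 in KD (1.75), with other probe sets at 1.40 and 0.95. P4HA2 was at 0.56 (2602 and 3844), with 4 other probe sets between 0.47 and 1.05, P3H2 at 0.57 and the lysyl hydroxylase PLOD1 at 0.52. The lysyl oxidases LOX (0.20) and LOXL2 (0.35) differed less. Of 13 members kept, 10 were higher and 3 lower, with a median of 0.20. Among 12 oxygen-dependent histone demethylases 6 were higher and 6 lower, with a median of -0.04, and KDM3A, a known HIF target, had the largest positive difference (734 and 1104, 0.58, and 0.79 in its other probe set). KDM5B was at 0.46 in its brightest probe set and -0.09 in another.

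**Figure D3:**
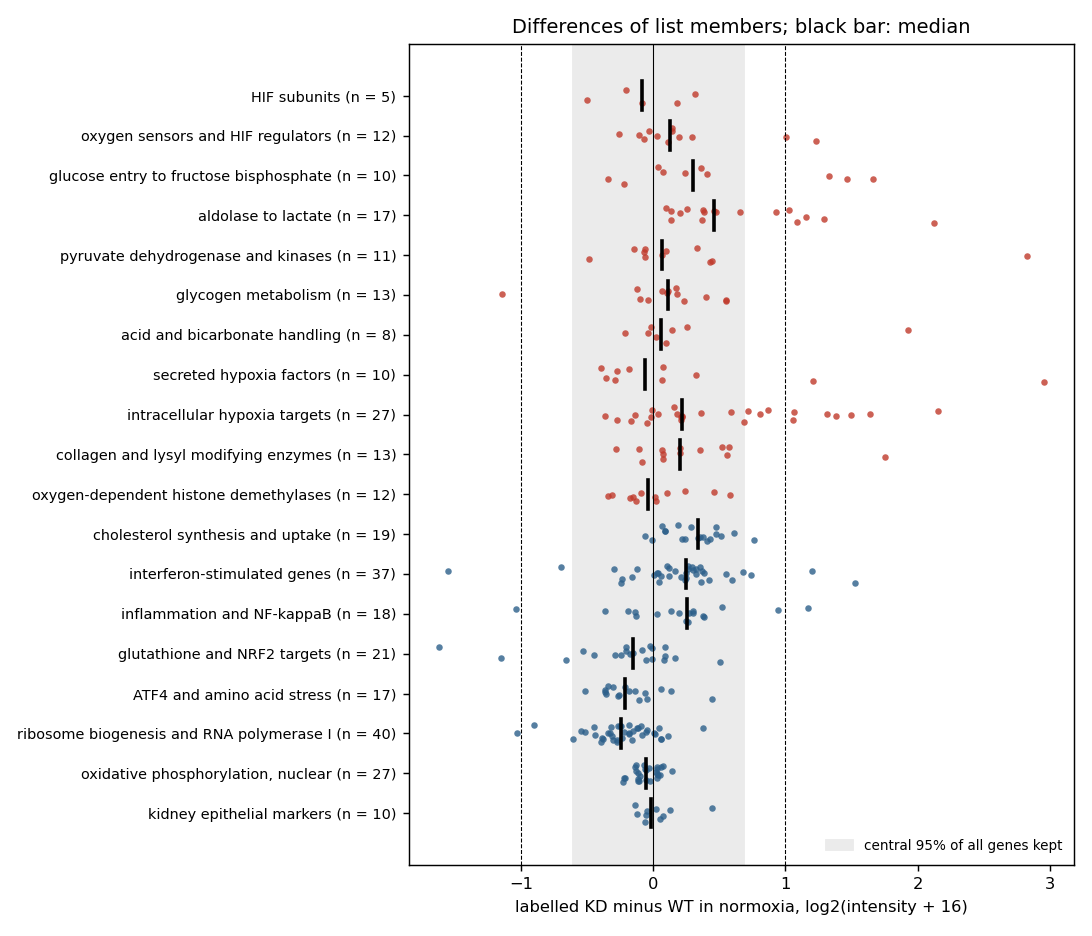
Each point is 1 member of a gene list that was kept, placed by its difference between the arrays labelled KD and WT normoxia (x axis, log2(intensity + 16)); the black bar is the list median, dashed lines mark 2-fold and the grey band holds the middle 95% of all genes. The 11 lists on oxygen and glucose use are in red; the aldolase to lactate list has no member below 0, and the ribosome biogenesis list has its median at -0.24.

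Outside these lists the largest positive differences came from genes of varied function. TMEFF2, a membrane protein with EGF-like and follistatin domains, read 322 in WT normoxia, 1107 in KD normoxia, 183 in WT hypoxia and 700 in KD hypoxia (difference 1.73), and 2 other probe sets had differences of 1.55 and 0.36. FGFBP1, which releases fibroblast growth factors from the matrix, read 1045, 2953, 779 and 2391 (1.48). S100A2, a calcium-binding protein of epithelia, read 1813, 4831, 818 and 1886 (1.41). In TMEFF2 and FGFBP1 both KD arrays were above both WT arrays, and in S100A2 KD hypoxia (1886) was close to WT normoxia (1813). CD38, an ectoenzyme that consumes NAD, read 63.2 and 250 (1.74), with 2.06 in a second probe set. The chloride and proton exchanger CLCN4 read 109 and 432 (1.84), with 1.73 in a second probe set. The exonuclease ISG20 read 326 and 971 (1.53). IGSF23 (1.85) and LETM2 (1.41) had other probe sets that differed by 0.54, and by 0.40 and 0.24, and MRPL10, at 1.45, has no other probe set above the floor.

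The gene farthest below 0 among those above the floor was MT1E. MT1E, a metallothionein that binds zinc and copper, read 4515 in WT normoxia, 1051 in KD normoxia, 4530 in WT hypoxia and 1444 in KD hypoxia (difference -2.09). Its relative MT2A read 13678 and 12320 (-0.15), and whether near-identical metallothionein copies share its probes was not tested. GCLC, the catalytic subunit of the enzyme that starts glutathione synthesis, read 1068, 336, 2317 and 821 (-1.62), and its other probe set had a difference of -1.70. NQO1, a quinone reductase, read 6025, 2703, 6496 and 3541 (-1.15), with -1.12 and -0.76 in its other probe sets. For MT1E, GCLC and NQO1 the reading in KD was below that in WT under either oxygen label. Of 13 metallothionein and zinc genes 4 were higher and 9 lower, with a median of -0.15, and MT1E was the only one past 2-fold. UGT1A6, which adds glucuronic acid to phenols, read 644 and 286 (-1.13), with other probe sets at -0.56 and 0.16. The median level over its probe sets also gave 0.16, which is the value of that last probe set (97.8 and 111) and not a shared direction. ZFAND2A, a stress-induced zinc finger protein, read 1146 and 548 (-1.04), with -1.10 and -0.74 in other probe sets.

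IDO1, which breaks down tryptophan, read 2461 in WT and 829 in KD (-1.55), and its other probe sets had differences of -1.69 and -1.85. It was far brighter in the arrays labelled hypoxia, 10053 and 6471. ZNRF3, which removes Wnt receptors from the membrane, read 184 and 64.9 (-1.31) and VAMP2, a vesicle fusion protein, 237 and 92.7 (-1.22), against 184 and 125 (-0.50) in its other probe set. LAMB3, a laminin chain of the epithelial basement membrane, read 404 and 177 (-1.12), but another LAMB3 probe set read 103 and 115 (0.14). CCDC32 read 234 and 80.5 (-1.37) in 1 probe set and 164 and 171 (0.05) in another, so no direction is given for LAMB3 or CCDC32. The others above the floor in both arrays were ARHGEF38 (-1.06), RASA2 (-1.05), ARHGAP9 (-1.03), NLRP9 (-1.001) and DIDO1 (-0.96).

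Of the 21 members kept of the glutathione and NRF2 list, whose genes are switched on by the oxidant sensor NRF2, 5 were higher and 16 lower, with a median of -0.15 and 2 at least 2-fold lower. Besides GCLC and NQO1, the glutathione reductase GSR read 240 and 146 (-0.66) and the thioredoxin reductase TXNRD1 4464 and 3088 (-0.53), while ABCC2, an efflux pump, was at 0.51. In 14 of the 21 the KD normoxia array was the lowest of the 4. Cholesterol synthesis and uptake had 17 of 19 members higher and 2 lower, with a median of 0.34 and none past 2-fold. TM7SF2, a sterol reductase, read 728 and 1248 (0.76, and 0.82 in its other probe set), EBP 1943 and 2968 (0.61), INSIG1 677 and 971 (0.51) and HMGCS1 5862 and 8165 (0.48, with 0.55 and 0.45 in other probe sets). The list had the same median to within 0.02 in the arrays labelled hypoxia (0.36), a pair that shares no array with this one.

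Ribosome biogenesis and RNA polymerase I, by contrast, had 33 of 40 members lower and 7 higher, with a median of -0.24. NOB1, which trims the small subunit RNA, read 1410 and 745 (-0.91), WDR74 960 and 623 (-0.61), UTP15 1222 and 832 (-0.55) and NOP56 3684 and 2566 (-0.52). The polymerase I factor UBTF read 79.6 in WT and 30.7 in KD, below the floor there, which leaves its size unmeasured. In 28 of the 40 the KD normoxia array was the lowest of all 4. MYC, which drives this programme, read 994 and 747 (-0.40). The ATF4 and amino acid stress list had 14 of 17 members lower, with a median of -0.21, among them PPP1R15A (-0.52), MTHFD2 (-0.37) and ASNS (-0.31). S phase genes had 19 of 28 lower with a median of -0.09, and G2 and mitosis genes 12 of 20 lower with a median of -0.06.

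Among immune lists, interferon-stimulated genes had 30 of 37 members above 0 and 7 below, with a median of 0.25. The list ran from IDO1 (-1.55) to ISG20 (1.53), both described above. GBP5, an interferon-induced GTPase, read 103 and 257 (1.20), PARP14 236 and 405 (0.74) and IFI44 126 and 211 (0.68), whereas CXCL10 read 486 and 294 (-0.70). In 25 of the 37 the WT normoxia array was the lowest of the 4. The inflammation list had 13 of 18 higher (median 0.26), led by the chemokine CCL17, which read 2370 and 5345 (1.17), and by the prostaglandin synthase PTGS2, which read 3330 and 6431 (0.95). NFKBIE, an inhibitor of NF-kappaB, read 72.9 in WT and 27.3, below the floor, in KD. Of the list's 32 measured members 14 did not reach the floor, and over all 32 the median was -0.03. Of the 10 mesenchymal genes kept, 8 were higher, with a median of 0.67, or 0.39 with the median over each gene's probe sets. SNAI2, a repressor of epithelial genes, read 1317 and 2335 (0.82), the cadherin CDH2 1225 and 2052 (0.74), S100A4 679 and 1113 (0.70) and FN1 2208 and 3379 (0.61), while VIM read 16968 and 16680 (-0.02). Of 20 measured mesenchymal members 10 did not reach the floor, and over all 20 the median was 0.16.

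The collagenase MMP13 read 598 in WT and 1242 in KD (1.03), far above its readings of 58.2 and 59.1 in the hypoxia arrays, and the Wnt inhibitor WIF1 read 41.9, below the floor, and 110, with the opposite sign when the median over its probe sets was taken (-0.26).

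Other groups lay near the middle of all genes. Nuclear genes of oxidative phosphorylation ran from -0.23 to 0.14, with a median of -0.05 over 27 members. The citric acid cycle list had a median of 0.00. IDH1, which the list holds although its enzyme is cytosolic, was at 0.64 (192 and 308). Fatty acid oxidation (0.01), fatty acid synthesis (-0.05), autophagy and lysosome (0.05), and integrins and desmosomes (0.09) held no member past 2-fold. In the unfolded protein response EDEM1, which directs misfolded proteins to breakdown, read 72.0 and 158 (0.98), against a list median of 0.09. The heat shock list held HSPH1, a large chaperone, at 1.03 (2432 and 4972, with 1.35 and 1.07 in other probe sets) and ZFAND2A at -1.04. Iron genes had a median of 0.09, with the metal importer SLC11A2 at -0.73 (763 and 454). Of 13 reference genes that are often taken as constant, 5 were higher and 8 lower, with a median of -0.06, but HPRT1 read 1084 and 1697 (0.64).

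Genes with 1 array of the pair below the floor are given by their readings, since the size of their difference is not measured. Higher in KD were ENOSF1 (14.7 in WT and 106 in KD), BANF2 (9.19 and 73.8), ZNF275 (12.6 and 77.0), FGF1 (19.0 and 91.5), HTR1D (29.9 and 112), MYORG (6.92 and 47.1), EDIL3 (13.3 and 61.1) and EDN2 (28.4 and 96.7). EDN2, an endothelin, read 12.5 in WT hypoxia and 65.2 in KD hypoxia, so it was above the floor in both KD arrays and in neither WT array. Lower in KD were MFSD13A (61.0 and 8.79), CYB561A3 (88.0 and 17.7), ADAMTS3 (70.0 and 13.6), NPTX2 (46.5 and 6.78), HCAR1 (49.3 and 14.3), SULT1D1 (51.7 and 16) and TREH (80.8 and 29.9). TGFBI, a matrix protein, read 20.4 in WT normoxia and 67.2 in KD normoxia, and 210 and 435 in the arrays labelled WT and KD hypoxia.

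Other probe sets of the same genes read the same RNA on the same arrays, so they check the probes and not the cultures. For the 84 higher genes, 33 had 43 other probe sets at or above the floor in this pair, of which 39 were also higher (90.7%) and 24 at least 2-fold. Their median difference was 1.08. For the 32 lower genes, 10 of 14 other probe sets were also lower (71.4%) and 5 at least 2-fold, with a median of -0.75. Among the 9718 genes less than 2-fold apart, 65.9% of 6724 other probe sets had the sign of the brightest one. Among genes with a full symbol, those whose other probe sets were all of opposite sign or below 0.20 in the same direction were CCDC32, LAMB3, CDK20 (1.37, against -0.19 and 0.17) and GOLGA3 (-1.01, against 0.37).

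**Figure D4:**
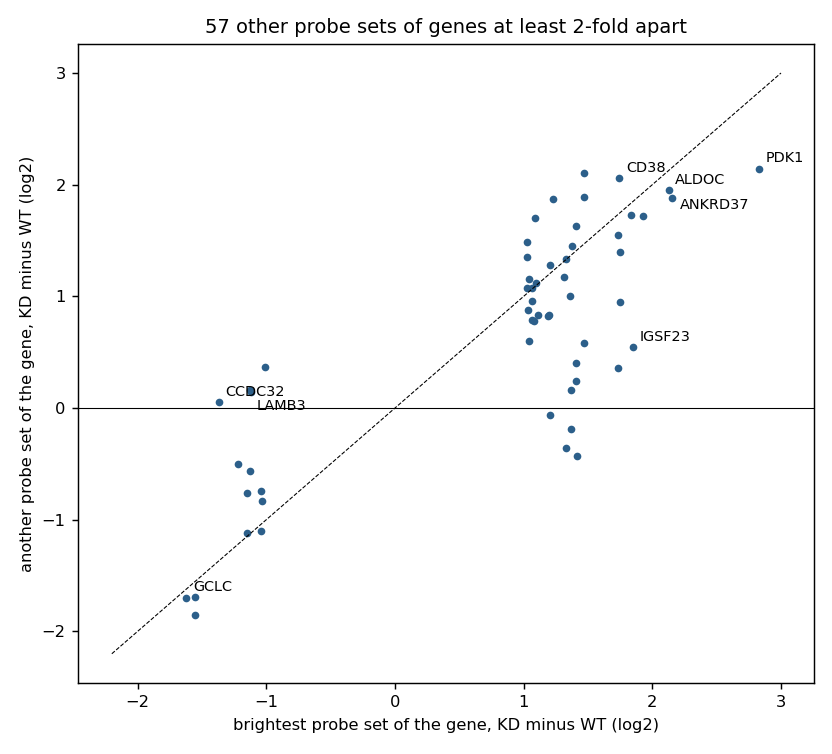
Each point is 1 further probe set of genes at least 2-fold apart, with the difference of the gene's brightest probe set on the x axis and its own difference on the y axis (labelled KD minus WT in normoxia, log2(intensity + 16)); the dashed line marks equal differences. CD38, ALDOC, ANKRD37 and GCLC lie near the line, while CCDC32 and LAMB3 lie near 0 on the y axis. PDK1 lies below the line (2.14 against 2.83). The empty middle of the x axis follows from the 2-fold choice.

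The same contrast of labels can be set beside it in the hypoxia arrays, which share no array with this pair. Of the 84 genes at least 2-fold higher here, 72 were also higher in KD hypoxia than in WT hypoxia and 14 at least 2-fold, with a median of 0.53 there against 1.27 here. Of the 32 lower genes 29 were also lower and 7 at least 2-fold, with medians of -0.52 and -1.12. The genes were picked for their size in normoxia, which favours a smaller value in the other pair, and the difference between the pairs was not tested. In hypoxia the labelled KD minus WT difference was 1.09 for ADM, 1.00 for PDK1, 1.72 for ANKRD37, 0.54 for GPI, 0.26 for AK4 and 0.10 for EGLN1. It was 1.84 for TMEFF2, 1.60 for FGFBP1 and -1.48 for GCLC, close to the values in normoxia. For MT1E it was -1.64, against -2.09 in normoxia. The aldolase to lactate list had a median of 0.33 in that pair with 15 of 17 higher, and the intracellular hypoxia targets had 0.15 with 18 of 27 higher.

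**Figure D5:**
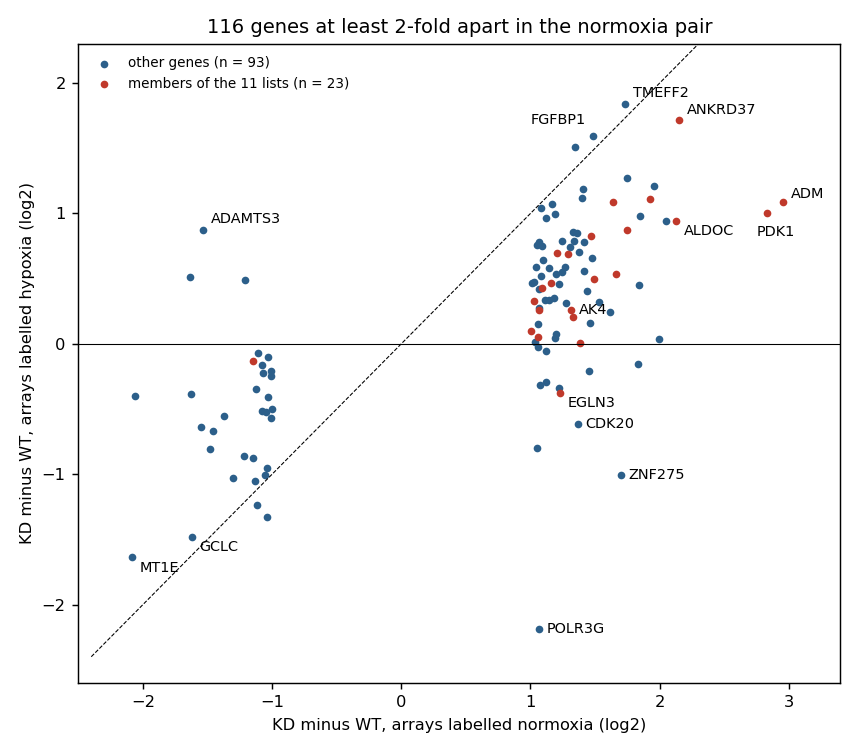
Each point is 1 of 116 genes at least 2-fold apart between the arrays labelled KD and WT normoxia (x axis), with the same labelled difference between the hypoxia arrays on the y axis (both log2(intensity + 16)); red points are members of the 11 lists and the dashed line marks equal differences. For 96 of the 116 the hypoxia value had the same sign and was smaller. TMEFF2, FGFBP1 and GCLC lie near the dashed line. POLR3G, ZNF275 and CDK20 lie on the other side of 0, although another probe set of POLR3G was higher in KD in both pairs. Genes were chosen on the x axis.

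Across the 84 higher genes the KD normoxia array had the highest reading of the 4 arrays in 69, KD hypoxia in 13 and WT hypoxia in 2. The lowest reading fell in WT normoxia for 51, in WT hypoxia for 28 and in KD hypoxia for 5. For the 32 lower genes the KD normoxia array was lowest in 27 and KD hypoxia in 4, while the highest reading was in WT normoxia for 17 and in WT hypoxia for 15. WT normoxia cannot be highest, nor KD normoxia lowest, among genes chosen as higher in KD, so these counts describe how the other arrays fell around the pair.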

How the data were processed

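Gene expression was measured on 4 Affymetrix arrays, 1 per group, from biotinylated cRNA made from 100 ng of total RNA, per the labels' protocols. The deposited values are a linear intensity per probe set. The program and any background or scaling step behind them could not be read from the labels or files. Between 1065 and 1129 probe sets per array are listed at exactly 1; they were kept as values.

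Values were turned to log2(intensity + 16). Of 42924 probe sets, 29254 had 1 gene symbol, 439 several and 13231 none in the platform annotation; 27680 of the first kind matched, through their gene ID, RefSeq genes of UU_Cfam_GSD_1.0, used for names alone. Each gene took the value of its brightest probe set, by the mean log2 value of all 4 arrays, and stayed in if at least 1 array was at or above the median of all values. The array labelled WT normoxia was subtracted from the array labelled KD normoxia; 1 array per side leaves no residual degrees of freedom, so no test was run. Gene names in 45 lists were matched by symbol, with 4 through a RefSeq synonym.

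The comparison and the lists were chosen with earlier results of these data known. Open to naming were HIF1A and the 20 highest and 15 lowest genes above the floor in both arrays without placeholder symbols. So were up to 8 per direction with 1 array below the floor, and the 4 members of each list with the largest absolute difference. List members at least 2-fold apart and any member of the 11 oxygen and glucose lists were also open to naming. Not all of these list members were named. Genes at the 2-fold threshold, those with disagreeing probe sets and a few further list members were singled out after their values were seen. Alternatives were 3 scalings (limma 3.58.1 in R 4.3.3), 2 pseudocounts, the median over probe sets, 4 floors and 2 other thresholds. The median over probe sets was the median log2 level of all probe sets of a gene in each array, taken before subtraction. It can differ from the median of the probe sets' differences. Counting was tested on simulated data (Python 3.11.15, numpy 2.4.6). The number of arrays limits the precision.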

Additional observations from a re-analysis of the deposited data

Results flagged for a closer look

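Of 160 named genes, 30 had a labelled KD minus WT difference of one sign in normoxia and of the other in hypoxia. For 4 of the 30 both differences were at least 1.5-fold, and the share of such sign changes over all genes was not counted. With 1 array per group the difference between the pairs was not tested. The value given is the normoxia difference minus the hypoxia difference, on the log2(intensity + 16) scale. With all 4 arrays above the floor, POLR3G (3.25), CDK20 (1.98) and MRPL10 (1.66) had wide values. POLR3G, an RNA polymerase III subunit, read 82.3 in WT normoxia, 190 in KD normoxia, 733 in WT hypoxia and 148 in KD hypoxia, but its other probe set was higher in KD in both pairs (1.08 in normoxia and 0.97 in hypoxia). CDK20 had other probe sets at -0.19 and 0.17 in normoxia, unlike the 1.37 of the one used. For ADAMTS3 (-2.41), BANF2 (1.99), EGLN3 (1.61), MFSD13A (-2.15) and ZNF275 (2.70), 2 or 3 of the 4 arrays were below the floor, so these values have no measured size or order. The other EGLN3 probe set had 1 sign in both pairs (1.87 and 0.17). Of 16 other probe sets of 12 of these genes, 7 also had opposite signs. The rest were ABCC2 (0.78), ARNT (0.37), CA13 (0.26), CA2 (0.37), CITED2 (0.56), DDIT4 (0.77), EDN1 (0.54), EGLN2 (0.034), GBE1 (0.49), HIF1AN (0.27), IDH1 (0.64), MXI1 (0.55), P3H2 (0.65), SLC2A1 (0.30), VHL (0.27) and WIF1 (1.17) on the positive side, and CDH16 (-0.15), EPAS1 (-1.01), HIF3A (-0.33), KRT18 (-0.13), MTHFD2 (-0.40) and VLDLR (-0.18) on the negative side. Among these, EPAS1, HIF3A and WIF1 had 1 array of the normoxia pair below the floor, so their values have no measured size either.

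Probe sets with no gene symbol were not used in the comparison. Of 6424 that reached the floor, 73 were at least 2-fold higher in KD (1.14%) and 45 at least 2-fold lower (0.700%), and they are not described further.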

How the results depend on the processing

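The 3 scalings (quantile, median centring, cyclic loess) gave 89 to 93 genes at least 2-fold higher in KD and 27 or 28 lower, against 84 and 32. A pseudocount of 1 gave 143 higher and 77 lower, and one of 64 gave 44 and 6 (88.0% higher, against 72.4%). Taking the median over a gene's probe sets gave 65 and 19. Without a floor, or with the floor at the 25th percentile, 117 and 61 passed; with it at the 75th percentile 53 and 10, and with both arrays at or above the floor 58 and 14. At 3-fold 18 and 5 passed, and at 1.5-fold 370 and 277. Members of the 11 oxygen and glucose lists at 3-fold numbered 8, against 22 at 2-fold; this count and its alternatives were chosen after the data were seen. With the median over probe sets, list medians became 0.45 for glucose entry, 0.78 for aldolase to lactate, 0.44 for intracellular targets, 0.39 for mesenchymal genes, 0.24 for tight and adherens junctions, 0.11 for inflammation, -0.34 for ATF4 and -0.18 for histone demethylases. Their sign turned for secreted factors (0.29), heat shock (0.15), prostaglandin genes (0.12), p53 targets (-0.046), the citric acid cycle (-0.059) and immediate early genes (-0.015), and for UGT1A6 (0.16) and WIF1 (-0.26). Without a floor, glucose entry was 0.13 and mesenchymal genes 0.16, and signs turned for the MYC network (0.054), inflammation (-0.029), immediate early genes (-0.079) and histone demethylases (0.0094). At the 25th percentile glucose entry was 0.16 and inflammation 0.030, and signs turned for the MYC network (0.026) and immediate early genes (-0.040). At the 75th, glucose entry was 0.87 and aldolase to lactate 0.84, and signs turned for oxygen sensors (-0.0058), pyruvate dehydrogenase (-0.061), secreted factors (0.062), prostaglandin genes (0.057), histone demethylases (0.020) and fatty acid synthesis (0.0054). With both arrays above the floor Wnt feedback was -0.11, and with a pseudocount of 64 mesenchymal genes were at 0.56. Scaling turned the sign of the prostaglandin (0.013 to 0.021), citric acid cycle (-0.012) and kidney epithelial (0.013) medians, all close to 0. Of 73 named genes at least 2-fold apart, 23 were not with the median over probe sets, among them EGLN1 (0.63), PFKFB3 (0.49), ANGPTL4 (0.91), ZNF395 (0.69) and NLRP9 (-0.25). Levels were combined before subtraction, so this does not mean that most probe sets of a gene fell below 2-fold. In probe sets at or above the floor, ANGPTL4 had differences of 1.21, 1.28 and -0.06, and PFKFB3 of 1.33, 1.34 and -0.36. With a pseudocount of 64, 37 of the named genes were not 2-fold apart, and 1 to 3 were not under each scaling or a pseudocount of 1. VAMP2 was -0.55 with a pseudocount of 1, where its other probe set has the higher mean. The cause of these shifts was not tested. Leaving out a replicate was not possible with 1 array per group, and the planned promoter motif description was not run. No paired analysis was possible because each group has 1 array. Dim signals limit the sizes: 852 genes had 1 array of the pair below the floor and 355 both.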
